A study of Homo sapiens with 12 samples.

Results

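Genes of the germ line form the set described here: 42 human genes of meiosis, of the piRNA pathway, of the oocyte and of germ cell RNA control, given by symbol and chosen with earlier results of these data known. All 42 were found in the RefSeq annotation of GRCh38.p14 and were set among 19974 protein-coding genes on the autosomes and X. They fell into 16 meiosis genes, 14 piRNA pathway genes, 7 oocyte genes and 5 other germ cell genes. The question was which of them lay in lamina-associated domains (LADs), meaning DNA in contact with the nuclear lamina, in each of 2 states of the human embryonic stem cell line H9.

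The series holds 12 libraries in 4 groups of 3, all from untreated H9 cells. Naive cells were kept in RSeT medium and primed cells in mTeSR medium, and each state has LMNB1 and Dam-only libraries. In pA-DamID an antibody against lamin B1 (LMNB1) brings a fusion of protein A and the Dam methylase to the lamina, where Dam methylates adenine in nearby GATC sites. Dam-only libraries use the untethered enzyme as the control for accessible DNA. The deposited files hold 1 LAD list per state, and the 3 libraries of a group are not kept apart in them. Differences between the states are therefore values of these lists, with no replicate spread beside them and no p-value. The lists give intervals on a grid of 10 kb windows, with 9178 naive and 5671 primed LADs, and hold no score or depth. The labels name final lists, while the deposited ones used here are called simple lists, and the sources do not give how these differ. They also hold no expression values, so the labelled cell states could not be checked against marker genes, and nothing below says whether a gene was transcribed. H9 is a single line. The sources used here do not say how the libraries of a state were combined.

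Meiosis reduces the chromosome set by pairing homologous chromosomes along a protein axis, joining them through the synaptonemal complex and exchanging DNA by programmed breaks. PIWI proteins bound to piRNAs, short RNAs of the germ line, silence transposons there, with Tudor proteins as scaffolds and helicases as processing factors. Most of these genes are silent in somatic cells, where many carry promoter DNA methylation. LADs are in general poor in active genes.

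Most of the germ line genes lay away from the lamina in both states, and those at the lamina were mostly there in both. The same held for protein-coding genes at large. A gene counted as in a LAD from 50% of its body upwards. By this rule 10 of the 42 genes (23.8%, exact binomial 95% interval 12.1% to 39.5%) lay in naive LADs, beside 18.9% of all protein-coding genes. In primed LADs there were 9 (21.4%, 10.3% to 36.8%), beside 17.3%. These intervals take genes as independent and do not cover replicate error. Both shares were close to the background, and both intervals include it. SYCP3, PRDM9, MSH4, TDRD6, ASZ1, TEX15, NOBOX and BOLL, 8 genes, were in LADs of both states, beside 15.4% of protein-coding genes. PIWIL4 and TDRD1 were in naive LADs only (2 of 42, beside 3.44%), and SOHLH2 in primed LADs only (1 of 42, beside 1.89%). The remaining 31 were in neither, beside 79.3% of protein-coding genes, so 11 of 42 lay in LADs of either state, beside 20.7%. Of the 42, 27 had no base in a LAD of either list, beside 74.4% of protein-coding genes.

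**Figure D1:**
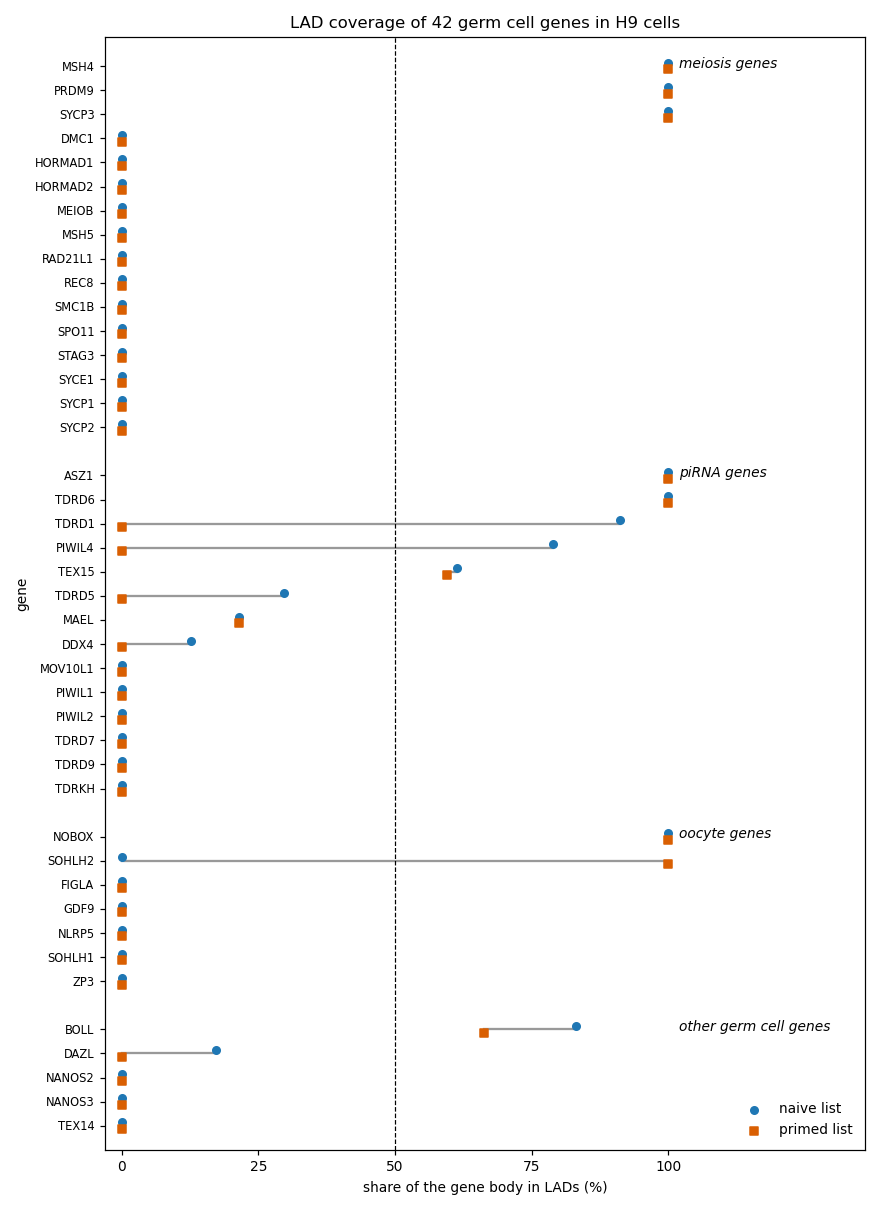
Share of each gene body in LADs (horizontal axis, %), with naive values as circles and primed values as squares, a grey line joining both, and genes grouped by role. The dashed line marks the 50% threshold. The long lines belong to TDRD1 and PIWIL4, covered in the naive list, and to SOHLH2, covered in the primed list, while 27 genes sit at 0% in both.

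Set side by side, the role classes rested on small numbers. Of the 16 meiosis genes, the same 3 were in naive and in primed LADs (18.8% in each, beside 18.9% and 17.3% of protein-coding genes). The other 13 had no covered base in either list (81.25%, beside 74.4%). Of the 14 piRNA pathway genes, 5 were in naive LADs (35.7%, interval 12.8% to 64.9%) and 3 in primed LADs (21.4%, 4.66% to 50.8%). Of the 7 oocyte genes, 1 was in naive and 2 were in primed LADs. Of the other 5 germ cell genes, 1 was in LADs of both states. At least 1 covered base was found in 8 of 14 piRNA genes in naive (57.1%, 28.9% to 82.3%), beside 23.8% of protein-coding genes, and in 4 in primed (28.6%, 8.39% to 58.1%), beside 20.8%. The piRNA genes were longer (median 75.4 kb) than the meiosis genes (34.0 kb) and than all protein-coding genes (24.2 kb), and the part of length in these counts was not tested. No test of a difference between the classes was made, and the intervals of the shares called at 50% all include the background share. That of piRNA genes with any naive base lies above it, but it is no test, since the genes were chosen with earlier results known. In the wider list described further on, 1 of 16 piRNA genes (6.25%) had a naive base.

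**Figure D2:**
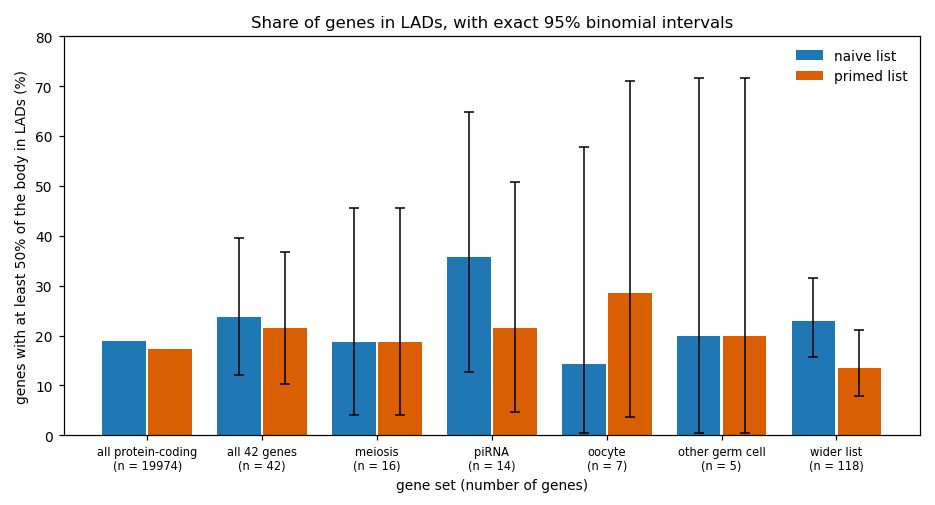
Percent of genes with at least 50% of the body in LADs (vertical axis) in the naive and primed lists, for all protein-coding genes, the 42 genes, their 4 role classes and the wider list of 118 germ line genes described further on. Bars are shares and error bars exact 95% binomial intervals with genes taken as independent. Every interval of the 42 genes and of their classes spans the bar of all protein-coding genes of the same list.

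In the meiosis class the 3 genes at the lamina came from different steps of the process. PRDM9 encodes the histone methyltransferase that marks where recombination starts. Its body (chromosome 5, 23507155 to 23528093) was covered at 100% in both lists, inside a naive LAD of 1960 kb and a primed LAD of 4610 kb. No other protein-coding gene had the lower-coordinate end of its body within 500 kb of it. MSH4 encodes a MutS homologue that stabilises recombination intermediates together with the product of MSH5. All 13 windows of its body (chromosome 1, 75796882 to 75913242) were called in both lists, in LADs of 1820 kb (naive) and 3720 kb (primed), and its 6 protein-coding neighbours within 250 kb were in LADs of both states too. The partner gene MSH5 (chromosome 6, 31740005 to 31762676) was covered at 0% in both, 1.63 Mb from the nearest naive and 2.58 Mb from the nearest primed LAD. Within 500 kb of MSH5 lay the lower-coordinate ends of 62 other protein-coding genes. SYCP3 encodes the core protein of the chromosome axis. It was covered at 100% in both lists (chromosome 12, 101728648 to 101739462), by a naive LAD of 40 kb and a primed LAD of 340 kb. With LADs under 50 kb left out, SYCP3 was thus in primed LADs only.

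The other 13 meiosis genes had values of 0% in both lists. They included all 4 cohesin genes, STAG3, REC8, SMC1B and RAD21L1, whose products hold sister chromatids together in meiosis. At 0% were likewise SYCP1, SYCP2 and SYCE1 of the synaptonemal complex and its axis, HORMAD1 and HORMAD2 of the axis, SPO11, which makes the breaks, DMC1, the strand exchange protein, and MEIOB, a single-strand DNA binding protein. By the smaller of its distances in the lists, SYCP1, which encodes the transverse filament of the complex, lay nearest to a LAD, at 14.1 kb in naive and 0.835 Mb in primed. HORMAD2 lay farthest, at 8.81 Mb in naive and 8.58 Mb in primed. It is on chromosome 22, which holds 3 LADs in each list. In all, 7 of the 42 genes sit on chromosomes 19 and 22, which together hold 8 naive and 12 primed LADs, and none of these 7 was in a LAD. Of the 35 genes elsewhere, 10 were in naive LADs (28.6%, 14.6% to 46.3%), beside 20.8% of protein-coding genes off those chromosomes, and 9 in primed LADs (25.7%, 12.5% to 43.3%), beside 19.1%.

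The piRNA pathway held 2 of the 3 genes whose call differed between the states. TDRD1 encodes a scaffold with several Tudor domains that binds PIWI proteins. Of the 7 windows over its body (chromosome 10, 114174874 to 114232666), 6 were called in naive and 0 in primed, a coverage of 91.1% against 0%. The covering naive LAD (114180001 to 114290000) was 110 kb long. In the body and 250 kb on each side, naive LADs covered 82.5% and primed LADs 12.6%, the latter as 6 LADs of 10 or 20 kb. The annotated start used for the promoter lay 0.713 kb outside that naive LAD, and 29.3 kb from the nearest primed LAD, so the start itself was outside LADs in both lists. Of 5 protein-coding neighbours within 250 kb, 3 were in naive LADs only, among them VWA2 (91.9% and 0%), 1 was in LADs of both states and 1 in neither.

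PIWIL4 encodes a PIWI protein that acts in the nucleus and directs DNA methylation of transposons. Of the 7 windows over its body (chromosome 11, 94567368 to 94621421), 5 were called in naive and 0 in primed, a coverage of 78.9% against 0%. The naive LAD (94540001 to 94610000) was 70 kb long, so the naive call was lost when LADs under 100 kb were left out. In the body and its 250 kb flanks naive LADs covered 65.7% in 9 pieces, and the primed list had no LAD there. The nearest primed LAD lay 257 kb away. Of 6 protein-coding neighbours, 4 were in naive LADs only, among them AMOTL1 (88.3% and 0%) and FUT4 (100% and 0%), and 2 in neither. The other PIWI genes, PIWIL1 and PIWIL2, were at 0% in both lists, 0.888 Mb and 0.715 Mb from the nearest naive LAD and 2.80 Mb and 1.44 Mb from the nearest primed LAD.

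Below the threshold, TDRD5 and DDX4 had naive but no primed coverage. TDRD5, another Tudor scaffold gene (chromosome 1, 179591613 to 179691272), had 4 of 11 windows called in naive, in 4 separate LADs, and 0 in primed (29.8% and 0%). Its start lay in the 20 kb naive LAD at 179580001 to 179600000 and 31.6 kb from the nearest primed LAD. Joining LADs less than 50 kb apart brought TDRD5 to 100% in the naive list and left it at 0% in the primed list, so that it counted as naive only. DDX4, the gene of the germ cell helicase VASA (chromosome 5, 55738061 to 55817157), had 1 of 9 windows called in naive and 0 in primed (12.6% and 0%), and no primed LAD within 628 kb. Joining LADs less than 100 kb apart brought DDX4 to 84.9% in naive and 0% in primed. Of the 42 genes, 3 had a covered share at least 25 points higher in naive (PIWIL4, TDRD1 and TDRD5), beside 4.97% of protein-coding genes, and 1 at least 25 points higher in primed (SOHLH2), beside 2.72%.

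**Figure D3:**
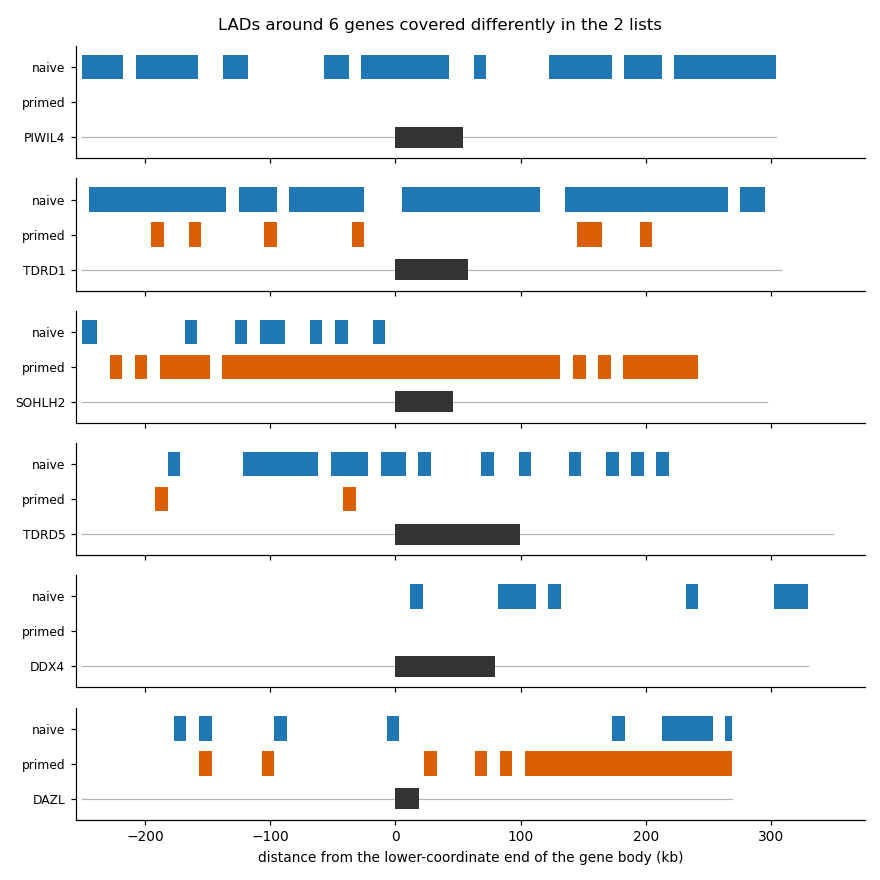
LAD intervals of the naive and primed lists around 6 genes, drawn to scale as distance from the lower-coordinate end of the gene body (horizontal axis, kb), with the gene body as the dark bar and 250 kb on each side. Naive LADs run over PIWIL4 and TDRD1 with no primed LAD on the body, and a single primed LAD of 270 kb runs over SOHLH2. The bodies of TDRD5, DDX4 and DAZL are touched by 4, 1 and 1 naive LADs and by no primed LAD.

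In both states the lamina-associated piRNA genes were TDRD6, ASZ1 and TEX15. ASZ1 encodes a mitochondrial protein needed to make piRNAs. All 7 windows of its body (chromosome 7, 117363222 to 117427493) were called in both lists, inside LADs of 3410 kb (naive) and 3860 kb (primed), together with its 3 protein-coding neighbours. TDRD6, the gene of a Tudor protein of the spermatid chromatoid body (chromosome 6, 46680268 to 46704319), was covered at 100% in both, in LADs of 700 kb and 590 kb, together with its 7 neighbours. TEX15, whose product takes part in piRNA-directed DNA methylation, was covered at similar shares by different windows. On its body (chromosome 8, 30831544 to 30913008) 5 of 9 windows were called in each list (61.4% in naive and 59.5% in primed), but only 2 of them were the same, which is 24.6% of the body. The pieces were 10 to 30 kb long, and TEX15 was in neither list's LADs once LADs under 50 kb were left out. MAEL, a gene of transposon silencing (chromosome 1, 166975582 to 167022214), had 1 of 6 windows called in each list (21.4% in both), and these were adjacent windows with no shared base. The other 6 piRNA genes were at 0% in both. By the smaller of the distances in both lists, nearest to a LAD among these was the helicase gene MOV10L1 (0.148 Mb in naive and 28.6 Mb in primed, on chromosome 22) and farthest was TDRKH, which encodes a mitochondrial Tudor protein (2.37 Mb in both). In the primed list alone MOV10L1 and PIWIL1 lay farther than TDRKH.

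Oocyte and germ cell transcription factor genes included the only member in primed LADs alone. SOHLH2 encodes a basic helix-loop-helix factor of early oocytes and spermatogonia. All 6 windows of its body (chromosome 13, 36168217 to 36214556) were called in primed and 0 in naive, a coverage of 0% in naive and 100% in primed. The primed LAD (36030001 to 36300000) was 270 kb long. Within that stretch the naive list had 5 LADs of 10 or 20 kb, the nearest 8.22 kb from the body. In the body and its 250 kb flanks naive LADs covered 15.0% and primed LADs 75.04%. Its annotated start lay in the primed LAD and 54.6 kb from the nearest naive one. Of 5 protein-coding neighbours, 4 were in primed LADs only. They were CCDC169 (0% and 100%), SPART (0% and 58.6%), DCLK1 (44.4% and 56.0%) and the read-through gene CCDC169-SOHLH2 (0% and 100%). DCLK1 thus lay close to the threshold in both lists. The read-through gene spans CCDC169, shares its sequence with SOHLH2 and is not an independent observation. The partner gene SOHLH1, also a basic helix-loop-helix gene, lay farthest from LADs among oocyte genes in both lists (15.4 Mb in naive and 7.62 Mb in primed).

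NOBOX, an oocyte homeobox gene (chromosome 7, 144396894 to 144410227), was covered at 100% in both lists, in a naive LAD of 140 kb and a primed LAD of 3930 kb. The other oocyte genes were at 0% in both, namely FIGLA, which drives the genes of the egg coat, GDF9, a growth factor of the oocyte, ZP3, an egg coat protein, and NLRP5, a part of the maternal subcortical complex. ZP3 lay nearest to a LAD, at 0.198 Mb in naive and 0.208 Mb in primed. Of the RNA-binding genes, BOLL, a relative of DAZL that acts in meiosis of the male, had 6 of 7 windows called in naive and 5 in primed (chromosome 2, 197726890 to 197786206, 83.1% and 66.3%), and the 5 primed windows were all called in naive. The primed LADs on BOLL were 3 pieces of 20, 30 and 1670 kb, and without LADs under 50 kb its share was 77.9% in naive and 10.5% in primed. DAZL itself (chromosome 3, 16586792 to 16605423) had 1 of 3 windows called in naive and 0 in primed (17.2% and 0%). The naive window lay at the end away from the start, and the nearest primed LAD began 4.58 kb beyond the start. Its flanks ran the other way, with 18.4% of the body and 250 kb flanks in naive and 41.5% in primed LADs. NANOS2, NANOS3 and TEX14, a gene of the bridges between germ cells, were at 0% in both, and by the smaller of its distances NANOS2, a factor of male germ cell fate, lay farthest (9.74 Mb in naive and 8.07 Mb in primed), with NANOS3 at 11.02 Mb and 4.27 Mb.

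**Figure D4:**
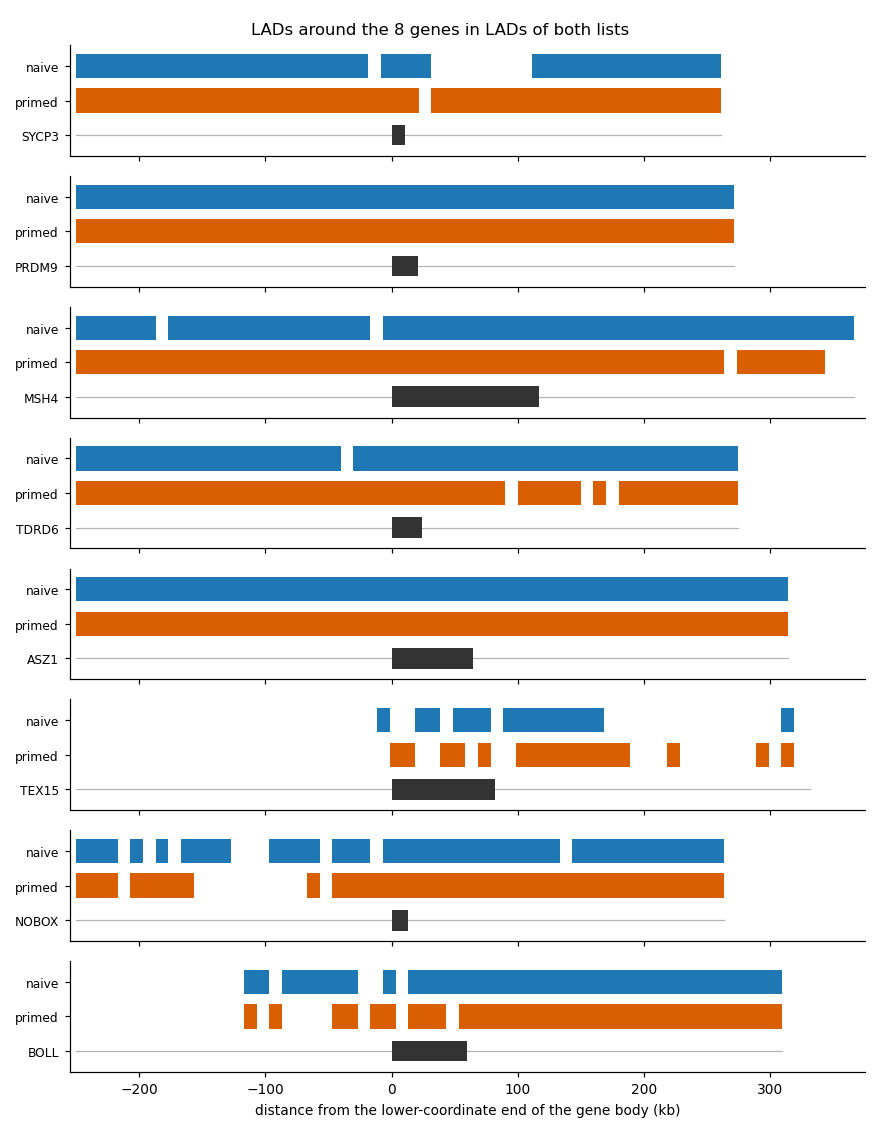
LAD intervals of both lists around the 8 genes in LADs of both states, drawn as distance from the lower-coordinate end of the gene body (horizontal axis, kb) with 250 kb on each side. PRDM9, MSH4, TDRD6 and ASZ1 lie inside long LADs of both lists, whereas TEX15 is covered by pieces of 10 to 30 kb that overlap in 2 windows.

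Close to the threshold, TEX15 was the gene just inside it in both lists (61.4% in naive and 59.5% in primed), and the genes just outside were TDRD5 in naive (29.8%) and MAEL in primed (21.4%). No value fell between these, and a threshold of 25% moved only TDRD5, to naive only. TDRD1, SOHLH2, PRDM9, MSH4, TDRD6, ASZ1 and NOBOX kept their calls under all 5 settings that joined or left out LADs. PIWIL4 kept its call under 4 of these 5, and SYCP3, TEX15 and BOLL under 3. Of the 31 genes in neither, 29 kept that call under all 5, DDX4 under 4 and TDRD5 under 2.

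**Figure D5:**
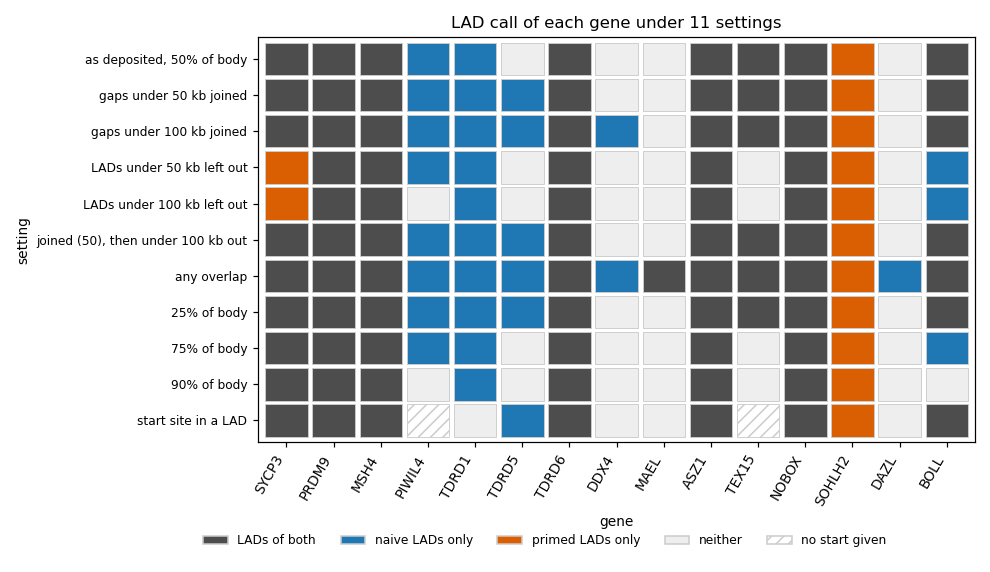
LAD call (colour) of the 15 genes with a covered base in either list (horizontal axis) under the deposited lists and the 10 alternatives (vertical axis). SOHLH2 is in primed LADs only under every setting, while TDRD1 is in naive LADs only under all settings but the one that reads the start site alone.

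Where the start site was used in place of the body, 36 of the 42 genes had an entry in the promoter table. PIWIL4, TEX15, HORMAD1, MEIOB, PIWIL2 and TEX14 had none. Starts of 8 of these 36 lay in naive LADs and of 8 in primed LADs, 7 in both, beside 17.8% and 17.4% of protein-coding genes with an entry. TDRD5 was the start in naive LADs only and SOHLH2 the start in primed LADs only. The promoters of the genes whose body or start changed its call are shown here, from 250 bases before to 49 bases after the start base (RefSeq, GRCh38.p14), with capitals on GATC, the site Dam methylates, and on CACGTG, an E-box bound by helix-loop-helix factors. SOHLH2 is at chr13:36214507-36214806 on the minus strand, TDRD1 at chr10:114179037-114179336 and TDRD5 at chr1:179591363-179591662, both on the plus strand.
SOHLH2: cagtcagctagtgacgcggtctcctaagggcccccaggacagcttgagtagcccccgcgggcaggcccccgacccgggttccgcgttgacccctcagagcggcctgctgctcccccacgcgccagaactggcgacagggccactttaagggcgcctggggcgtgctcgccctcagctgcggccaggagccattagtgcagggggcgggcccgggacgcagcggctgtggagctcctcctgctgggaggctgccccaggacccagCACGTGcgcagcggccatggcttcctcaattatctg
TDRD1: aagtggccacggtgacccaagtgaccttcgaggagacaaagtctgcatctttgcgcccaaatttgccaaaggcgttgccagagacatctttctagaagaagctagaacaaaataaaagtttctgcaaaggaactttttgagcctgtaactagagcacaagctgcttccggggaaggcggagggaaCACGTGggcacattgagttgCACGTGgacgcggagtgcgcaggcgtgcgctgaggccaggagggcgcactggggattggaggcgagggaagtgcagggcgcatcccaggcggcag
TDRD5: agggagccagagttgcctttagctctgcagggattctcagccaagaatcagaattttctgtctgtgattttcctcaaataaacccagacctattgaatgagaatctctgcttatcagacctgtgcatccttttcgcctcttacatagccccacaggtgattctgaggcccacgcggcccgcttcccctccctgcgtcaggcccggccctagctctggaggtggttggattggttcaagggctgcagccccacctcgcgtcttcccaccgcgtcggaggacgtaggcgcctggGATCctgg
The SOHLH2 and TDRD1 windows hold 0 GATC sites and the TDRD5 window 1. GATC was found in 36.1% of the 36 promoters and in 39.7% of the 15813 protein-coding promoters, so such a window often holds no site and the calls rest on sites elsewhere in the 10 kb. CACGTG was found once in the SOHLH2 promoter, at 2 places in the TDRD1 promoter and at 3 places in that of SOHLH1, and in 5 of the 36 promoters (13.9%) beside 8.87% of all.

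Apart from the LAD calls, the meiosis promoters were searched for a further letter string. GCGGGAA, the core of sites bound by E2F factors, was looked for on both strands, as were GATC and CACGTG, which read the same on both. These strings can share no more than an end base with each other. GCGGGAA was present in 8 of the 14 meiosis promoters (57.1%) and in 8.61% of all protein-coding promoters. It was found in 2 of 11 piRNA promoters (18.2%), in 0 of 7 oocyte promoters and in 0 of 4 promoters of the other germ cell genes. In the wider list below it was in 11 of 41 meiosis promoters (26.8%), in 0 of 11 piRNA promoters, in 3 of 20 oocyte promoters (15.0%) and in 1 of 17 promoters of other germ cell genes (5.88%). These strings were chosen after the LAD values were known, and a match is a description of the letters and not of binding. The matches are given with up to 10 bases on each side, read along the strand that holds the motif, with the motif in capitals.
REC8: agatcgcaccGCGGGAAgcgagcgctt
SMC1B: cggaaaaagcGCGGGAAgggattcgcc
SYCP1: gaaaagGCGGGAAatcgctcagc
SYCP2: acggcggaagGCGGGAAgcgcccgtcc
SYCE1: ggctaaacctGCGGGAAgagagggaaa
SPO11: ctcagaaagcGCGGGAAaggcacgcag
PRDM9: ttcctcagggGCGGGAAgagccaggcc
MSH5: acggcagaggGCGGGAAgtttgaacgt
TDRD9: ggtctccgcgGCGGGAAcaggcgacgg
ASZ1: gtagagatgcGCGGGAAggagcgccgt
Of these 10 genes, PRDM9 and ASZ1 were in LADs of both states and the other 8 in neither. Promoters of genes in a LAD of either state and in neither had a median GC content of 66.3% (9 genes) and 67.7% (27 genes), against 56.8% and 63.7% for protein-coding genes of the same calls.

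Genes at the lamina had fewer genes around them, among the 42 as among all genes. Other protein-coding genes were counted where the lower-coordinate end of their body lay within 500 kb. Of the 42, genes in a LAD of either state had a median of 8 (range 0 to 16) and those in neither 17 (4 to 62). Over all protein-coding genes the medians were 6 and 15. The 42 genes had a median body length of 46.5 kb, against 24.2 kb for all protein-coding genes, and median distances to the nearest LAD of 0.672 Mb in naive and 1.00 Mb in primed, against 0.609 and 0.869 Mb.

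The wider list held 118 other genes of the same pathways, all matched, 1 by an older symbol. It was drawn up with earlier results of these data known, PSMA8, MAGEA4, OOEP and KHDC3L among them. Of the 118, 27 (22.9%) were in naive LADs, beside 18.9% of protein-coding genes, and 16 (13.6%) in primed LADs, beside 17.3%. In LADs of both states there were 14 (11.9%), beside 15.4%. In naive LADs only there were 13 (11.02%, exact interval 5.998% to 18.1%) at 10 loci, beside 3.44% of protein-coding genes. The interval takes genes as independent, though some share a locus. As PSMA8 and MAGEA4 are among the 13 and the list was drawn up with results known, it is no test against that share. In primed LADs only there were 2 (1.69%) at 1 locus, beside 1.89%. The naive-only count depended on how short and closely spaced LADs were treated. Without LADs under 50 kb it was 5 genes at 3 loci, beside 2.8% of protein-coding genes, against 3 in primed only, beside 1.92%. Without LADs under 100 kb it was 3 genes at 2 loci, beside 2.44%, against 3 in primed only, beside 2.2%. With LADs less than 50 kb apart joined, 12 genes at 9 loci were in naive only, beside 4.16% of protein-coding genes, and 3 in primed only, beside 1.44%. With LADs so joined and those under 100 kb then left out, 8 genes at 5 loci were in naive only, beside 3.87%. In primed only there were then 3, beside 1.38%.

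By role, the naive-only genes of the wider list were 5 of 50 meiosis genes (4 loci) and 0 of 16 piRNA genes. They were 3 of 30 oocyte genes (3 loci) and 5 of 22 other germ cell genes (5 loci), beside 3.44% of protein-coding genes. In the meiosis group STRA8, which starts the meiotic programme, had 69.8% of its body in naive LADs and 0% in primed ones. HFM1, a helicase of crossover formation, stood at 74.2% and 20.4%, and TEX12, of the central element of the synaptonemal complex, at 50.7% and 0%. C1orf146 and the testis proteasome gene PSMA8 were at 100% in naive and 0% in primed. BRDT, a bromodomain gene of the testis, was also at 100% and 0%, and lies with HFM1 and C1orf146 on the same stretch of chromosome 1, so these 3 are 1 locus. TAF4B, of a germ cell form of the general transcription factor TFIID, was at 66.6% and 0% and lies beside PSMA8 on chromosome 18. TNP1, which replaces histones in spermatids, was at 89.5% and 0%, TEX13B at 100% and 0%, and MAGEA4 at 100% and 40.7%. Of the oocyte group, MOS, the kinase that arrests the egg, was at 100% and 0%, FBXO43, an inhibitor of the anaphase-promoting complex, at 58.1% and 3.30%, and ZAR1L at 54.0% and 0%. The primed-only genes were OOEP (0% in naive and 62.4% in primed) and KHDC3L (0% and 100%), neighbours on chromosome 6 that encode parts of the maternal subcortical complex. The naive values of TEX12, ZAR1L and FBXO43, from 50.7% to 58.1%, lie just above the threshold, and the naive calls of TEX12, ZAR1L, FBXO43, TNP1, TEX13B and MOS rest on 1 called window each.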

How the data were processed

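LADs of naive and primed H9 cells were taken from the lists the authors deposited, 1 per state, whose coordinates (chromosome, start and end, with no score) carry no depth. Per the labels, which name final and not simple lists, each list stands for 3 LMNB1 and 3 Dam-only libraries. Build hg38 and the tools BWA, SICER and SAMtools 1.10 stand in the submitters' processing notes, while thresholds and the pooling of libraries are not given in the sources. The precision of a call is therefore unknown.

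Starts were converted to 1-based positions. Gene bodies and promoters came from RefSeq GRCh38.p14, which has hg38 as its primary assembly, and the covered share of each body was computed over 22 autosomes and X. The members and lists were chosen with earlier results of these data known. Named in full were genes whose call or covered share (by at least 25 points) differed, genes in LADs of both states, and per class the genes outside LADs nearest to and farthest from one. Genes of the wider list were named where their call differed. The alternatives joined or left out LADs, changed the threshold or used the start site. Counting loci (genes of 1 call less than 1 Mb apart) was added after seeing the data. In a check on simulated data 200 of 200 switched genes were recovered among 19974, with 0 called elsewhere. The switched genes were given a LAD over the whole body, so this outcome was fixed in advance. It checks the code and not the precision of the calls. Software was SciPy 1.17.1, pandas 2.3.3, matplotlib 3.10.9 and numpy 2.4.6 under Python 3.11.15.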

Additional observations from a re-analysis of the deposited data

How the results depend on the processing

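No paired analysis was possible because each state has a single list that does not keep its 3 replicates apart, so no replicate was left out. The numbers of genes in LADs of the naive (10) and the primed list (9), and of meiosis (3) and oocyte genes (2) in LADs of either state, stayed within 1.5 times these values under all 10 alternatives. Other counts moved. The 2 genes in naive LADs only became 4 with LADs less than 100 kb apart joined (beside 4.73% of protein-coding genes), 5 with any overlap (4.84%), 1 at a threshold of 90% (2.4%) and 1 by the start site (3.14%). The last is TDRD5, since PIWIL4 has no promoter entry and the TDRD1 start lay outside. The 1 gene in primed LADs only became 2 without LADs under 50 kb (1.92%) and 2 without LADs under 100 kb (2.2%). Of all protein-coding genes, 79.3% were in neither state's LADs with the deposited lists and the 50% threshold. This share was 82.6% without LADs under 100 kb, 74.4% with any overlap, 83% at 90% and 79.5% by the start site. The 5 piRNA genes in LADs of either state became 3 without LADs under 100 kb, 8 with any overlap, 3 at 90% and 3 by the start site. That last fall comes from missing promoter entries for PIWIL4 and TEX15, as among genes with an entry TDRD1 left and TDRD5 entered. Counted as loci, the naive-only and primed-only genes remained 2 and 1. No gene passed from one state's LADs to the other's alone. The lists give no depth, so a window without enough reads cannot be told from one away from the lamina.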
